A study of Mus musculus with 10 samples.

Results

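Granzymes, perforin and the receptors of natural killer (NK) cells form the set of 10 transcripts described here, out of 19938 genes measured: Gzmb, Gzma, Gzmk, Prf1, Nkg7, Ifng, Klrk1, Klrd1, Ncr1 and Eomes. They were chosen by name, with earlier results of these data known. Each is read by 1 probe that carries that gene symbol and no other, and all 10 had such a probe. The question was how Gzmb compares with the other cytotoxic and NK genes in tumors given a TLR9 agonist.

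The tumors were grown under the skin of C57BL/6 mice from MC38, a mouse colon carcinoma line. In 5 mice (50, 58, 183, 189 and 595) a tumor of about 40 mm2 was injected with CpG1826 (50 µg in 50 µL, with PBS as the vehicle), and in 5 control mice (26, 29, 482, 592 and 661) the tumor received PBS. CpG1826 is a synthetic DNA oligonucleotide whose unmethylated CpG dinucleotides engage mouse TLR9, a receptor for DNA in endosomes. CpG1826 tumors were taken after 6 h. The same schedule was assumed for PBS tumors, because the labels describe it for the CpG1826 injection alone. Each array holds total RNA of 1 whole tumor, with tumor cells, leukocytes, stroma and any attached skin together. The values are on a log2 scale, so a difference of 1 is a doubling. Nothing in the labels says whether mice of 1 group shared a litter, cage or day.

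Cytotoxic lymphocytes, which are NK cells and CD8 T cells, store perforin and granzymes in secretory granules. On contact with a target, perforin opens the way for granzymes into the target cell, where granzyme B cleaves caspases and other death substrates. NK cells are known to respond to IL-12, IL-15, IL-18 and type I interferon, which myeloid cells make when their Toll-like receptors are engaged. NK cells hold some granzyme and perforin mRNA before activation.

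Facts of the whole series bear on what follows. The array medians lay between 6.47 and 6.53, and arrays correlated at r = 0.980 to 0.994 across probes. CpG1826 mouse 50 and PBS mouse 661 stood apart in these genes: each was the lowest of its group in 8 of the 9 genes other than Gzmb, and both were also lowest for Gzmb. The main results are therefore given with and without both arrays. A difference was called when its limma p-value, adjusted by Benjamini-Hochberg over all 19938 genes, was under 0.05. Of 8 markers of intestinal or simple epithelium (Epcam, Krt8, Krt18, Krt19, Krt20, Cdh1, Vil1 and Cdx2), 1 lay above the median gene level of 6.88 in PBS tumors, which was Krt8. Levels of different probes cannot be ranked, so this neither bears out the carcinoma label nor goes against it, and a low probe value is not called absence.

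Gzmb rose in CpG1826 tumors, and it was the only one of the 10 genes that passed the test. Of the 10, 1 was called higher (3.56% of all genes were) and 0 were called lower (1.1% of all genes were), where 4.66% of all genes were called in either direction. At an unadjusted p under 0.05, 2 were higher (8.13% of all genes were) and 0 lower (7.43% of all genes were), the second being Prf1. The median log2 fold change of the 10 was -0.03, against -0.02 over all genes, and the changes ran between -0.35 for Klrd1 and 1.15 for Gzmb.

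Granzyme B is the serine protease of cytotoxic granules that cuts after aspartate, as caspases do. Gzmb read 9.31, 10.11, 10.53, 9.74 and 10.23 in CpG1826 mice 50, 58, 183, 189 and 595, against 8.76, 9.07, 9.02, 8.97 and 8.33 in PBS mice 26, 29, 482, 592 and 661. The lowest CpG1826 tumor, mouse 50, lay above the highest PBS tumor, mouse 29, so the groups did not overlap, as for 4.35% of all genes in this direction. In the lower direction 0 of the 10 genes had groups apart, against 2.42% of all genes. The means were 9.98 ± 0.47 in CpG1826 tumors and 8.83 ± 0.30 in PBS tumors (SD, n = 5 each). Gzmb was thus 2.23-fold higher (95% confidence interval 1.65 to 3.01, limma adjusted p = 0.00406), a log2 fold change of 1.15 ± 0.20 (SE). Counted from the top, this was the 94th largest rise of all genes. Without mice 50 and 661 the log2 fold change was 1.20 (limma adjusted p = 0.00112). In these bulk samples a change in the number of cells of a type and a change in RNA per cell cannot be told apart.

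**Figure D1:**
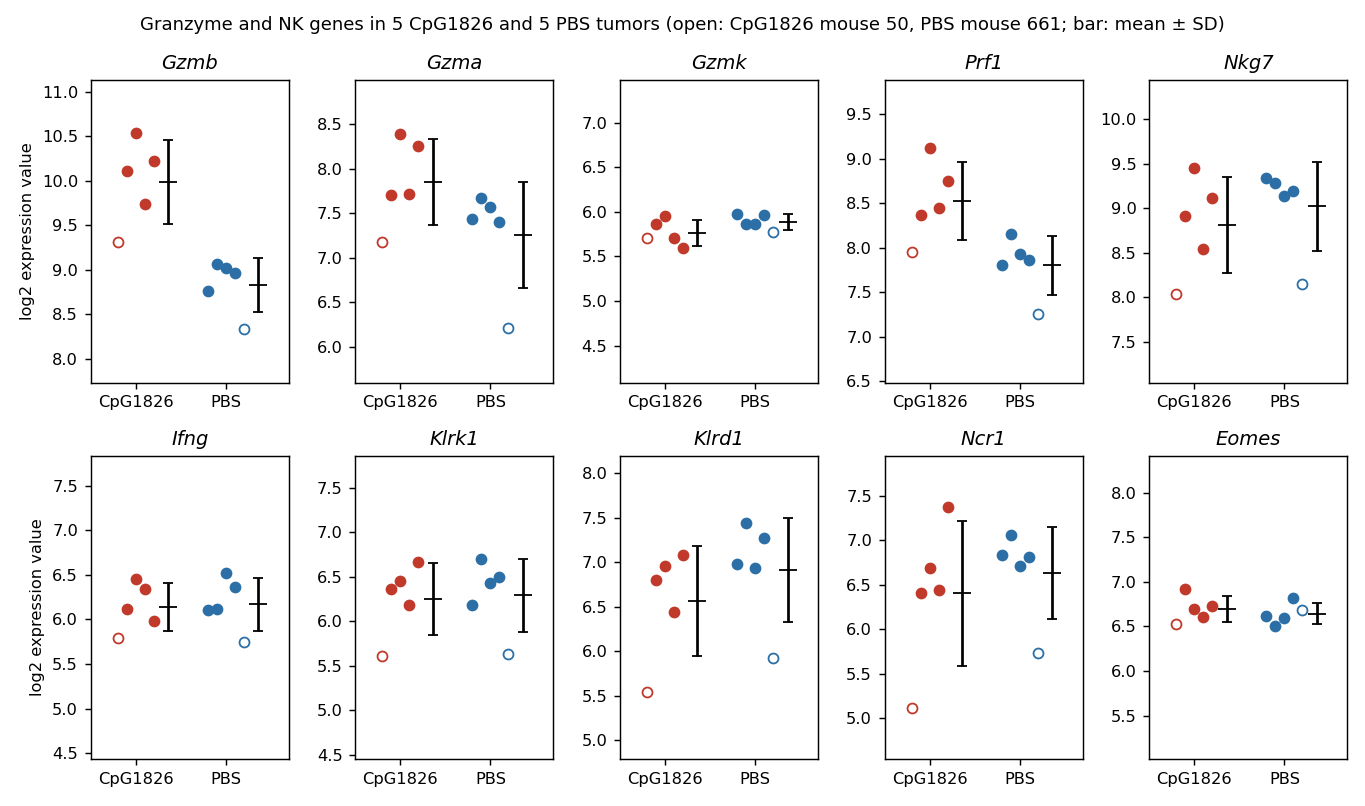
Log2 expression value (vertical axis, all panels spanning the same number of log2 units) of each of the 10 genes in 5 CpG1826 tumors (left, red) and 5 PBS tumors (right, blue); each point is 1 mouse, the bar is the group mean with its SD, and open points are CpG1826 mouse 50 and PBS mouse 661. Only for Gzmb do the groups not overlap, with CpG1826 tumors between 9.31 and 10.53 and PBS tumors between 8.33 and 9.07.

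The sequence just upstream of Gzmb is shown beside those of Prf1 and Gzma, the 2 of the other 9 genes with the largest estimates, to show what the promoters of the 3 granule genes hold. Each stretch is the 250 bases before the RefSeq start of the gene in build GRCm38.p6: Gzmb at chr14:56262335-56262584 on the minus strand, Prf1 at chr10:61297586-61297835 on the plus strand and Gzma at chr13:113100982-113101231 on the minus strand. Capitals mark matches to the motifs searched.
Gzmb: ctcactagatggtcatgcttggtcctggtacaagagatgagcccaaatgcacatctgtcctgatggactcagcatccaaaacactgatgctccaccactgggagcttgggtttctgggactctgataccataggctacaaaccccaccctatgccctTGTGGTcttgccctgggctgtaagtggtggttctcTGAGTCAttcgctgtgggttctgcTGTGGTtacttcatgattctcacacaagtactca
Prf1: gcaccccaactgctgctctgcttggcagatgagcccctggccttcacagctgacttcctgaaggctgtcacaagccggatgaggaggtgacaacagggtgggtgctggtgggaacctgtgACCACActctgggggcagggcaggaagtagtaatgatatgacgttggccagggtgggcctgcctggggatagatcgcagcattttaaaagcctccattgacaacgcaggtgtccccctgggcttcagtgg
Gzma: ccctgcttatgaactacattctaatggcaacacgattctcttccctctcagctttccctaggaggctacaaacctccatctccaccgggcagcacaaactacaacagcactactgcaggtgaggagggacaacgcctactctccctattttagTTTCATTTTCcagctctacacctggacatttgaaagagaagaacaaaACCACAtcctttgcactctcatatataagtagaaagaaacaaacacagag

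Both strands were searched for 7 motifs: AP-1 (TGANTCA), Runx (TGTGGT), a T-box motif (GGTGTGA), GAS (TTCNNNGAA), ISRE (GAAA, any 2 bases, GAAA), NF-κB (GGGA, any 2 bases, TTCC) and CRE (TGACGTCA). The Gzmb stretch held 1 AP-1 match and 2 Runx matches. The Prf1 stretch held 1 Runx match, and the Gzma stretch 1 Runx and 1 ISRE match. No match overlapped another in these stretches. Among the genes not shown, Ncr1 also held 2 Runx matches, Nkg7 and Klrk1 held 1 each, and Eomes held 1 ISRE match. Gzmk and Nkg7 each held 1 T-box match, Nkg7 and Ifng each 1 GAS match, and Gzmk 1 NF-κB match. Among 32536 promoter stretches of this length, 6.73% held at least 1 AP-1 match, 14.0% at least 1 Runx match and 2.98% at least 1 ISRE match. For the T-box motif, GAS and NF-κB the shares were 3.33%, 7.04% and 1.21%. A match describes letters and is no evidence of binding.

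Perforin, the pore-forming partner of the granzymes, had the largest estimate among the other 9 genes. Prf1 read 7.95, 8.37, 9.12, 8.44 and 8.74 in CpG1826 mice 50, 58, 183, 189 and 595, against 7.80, 8.16, 7.93, 7.87 and 7.25 in PBS mice 26, 29, 482, 592 and 661. CpG1826 mouse 50 lay among the PBS values and the other 4 CpG1826 tumors above all of them. The log2 fold change was 0.72 ± 0.20 (SE; 1.65-fold, 95% confidence interval 1.23 to 2.22), and it did not pass (limma adjusted p = 0.0578). Without CpG1826 mouse 50 it passed (0.87, limma adjusted p = 0.0183, where leaving out single mice gave 0.0183 to 0.129), and without both mouse 50 and mouse 661 it passed as well (0.73, limma adjusted p = 0.0253).

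Granzyme A is a tryptase-like granule protease that cleaves after basic residues. Gzma read 7.18, 7.70, 8.38, 7.72 and 8.25 in CpG1826 mice 50, 58, 183, 189 and 595, against 7.44, 7.68, 7.57, 7.40 and 6.21 in PBS mice 26, 29, 482, 592 and 661. Apart from mouse 50, every CpG1826 tumor lay above every PBS tumor, the closest pair being mice 58 and 29. The difference of 0.59 ± 0.27 (SE) on the log2 scale did not pass (limma adjusted p = 0.322). PBS mouse 661 lay far below the next PBS tumor, and without it the difference was 0.33 (limma adjusted p = 0.533). Without both outlying arrays the difference was 0.49 (limma adjusted p = 0.151).

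Gzmk, another tryptase-like granzyme, lay between 5.59 and 5.95 in CpG1826 tumors and between 5.77 and 5.98 in PBS tumors. Its change was -0.13 ± 0.08 (SE; limma adjusted p = 0.502), the narrowest error of the 10 genes, with a 95% confidence interval for the fold change of 0.815 to 1.03.

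NKG7, a membrane protein of cytotoxic granules, is a common marker of NK cells and cytotoxic T cells. Nkg7 read 8.04, 8.92, 9.45, 8.54 and 9.11 in CpG1826 mice 50, 58, 183, 189 and 595, against 9.35, 9.28, 9.14, 9.20 and 8.15 in PBS mice 26, 29, 482, 592 and 661. The ranges overlapped, with only CpG1826 mouse 183 above every PBS tumor and only CpG1826 mouse 50 below every one. All CpG1826 tumors but mouse 183 lay below all PBS tumors but mouse 661. The change was -0.21 ± 0.26 (SE), with a 95% confidence interval for the fold of 0.585 to 1.28 (limma adjusted p = 0.775).

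The receptor transcripts also overlapped between the groups and did not pass the test. Klrk1 encodes NKG2D, an activating receptor for stress ligands; it lay between 5.61 and 6.66 in CpG1826 tumors and between 5.63 and 6.70 in PBS tumors, a change of -0.04 ± 0.21 (SE). Klrd1 encodes CD94, the partner of the NKG2 receptors that bind Qa-1; it lay between 5.54 and 7.08 in CpG1826 tumors and between 5.93 and 7.45 in PBS tumors, a change of -0.35 ± 0.30. Ncr1 encodes NKp46, the receptor that marks NK cells and some innate lymphoid cells; it lay between 5.12 (mouse 50) and 7.37 (mouse 595) in CpG1826 tumors, the widest range of the 10 genes in that group, and between 5.73 (mouse 661) and 7.06 in PBS tumors. Its change was -0.22 ± 0.34 (SE), and its 95% confidence interval allows anything between a fold of 0.514 and a fold of 1.43. The limma adjusted p-values of the 3 receptors were 0.652 to 0.959. For Klrk1 the interval of the fold was 0.714 to 1.33 and for Klrd1 0.499 to 1.24. With intervals so wide these data do not show that the receptors were unchanged. All 3 intervals leave out a rise of 2.23-fold, the estimate of Gzmb.

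Ifng, the cytokine that NK and T cells secrete on activation, lay between 5.80 and 6.46 in CpG1826 tumors and between 5.74 and 6.52 in PBS tumors. Its change was -0.03 ± 0.15 (SE; limma adjusted p = 0.955), and the 95% confidence interval for the fold, 0.784 to 1.22, leaves out a change the size of that of Gzmb. Eomes, a T-box transcription factor of NK cells and CD8 T cells, lay between 6.53 and 6.92 in CpG1826 tumors and between 6.50 and 6.82 in PBS tumors (0.05 ± 0.08; limma adjusted p = 0.836). Without mice 50 and 661, the log2 fold changes of Gzmk, Nkg7, Ifng, Klrk1, Klrd1, Ncr1 and Eomes ran between -0.34 and 0.10, and again none of the 7 passed (limma adjusted p = 0.378 to 0.944). The 2 arrays pull the estimates of Nkg7, Klrd1, Klrk1, Ifng and Ncr1 in opposite directions. Without mouse 50 alone Nkg7 was at -0.02, Klrd1 at -0.09, Klrk1 at 0.12, Ifng at 0.06 and Ncr1 at 0.10, and without mouse 661 alone Nkg7 was at -0.43, Klrd1 at -0.59, Klrk1 at -0.20, Ifng at -0.14 and Ncr1 at -0.45. The sign of Klrk1, Ifng and Ncr1 thus depends on which array is left out, and none passed in either fit. Among the 10 genes in PBS tumors, 5 lay below the median gene level (Gzmk, Ifng, Klrk1, Ncr1 and Eomes), where probes can understate a change.

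**Figure D2:**
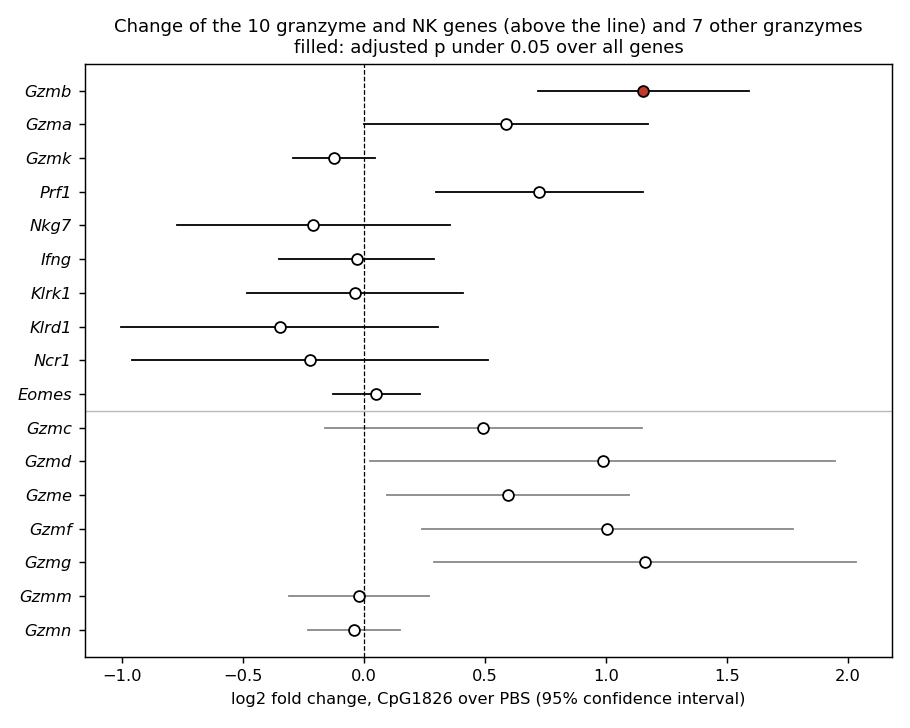
Log2 fold change, CpG1826 over PBS (horizontal axis), with its 95% confidence interval for the 10 granzyme and NK genes (above the grey line) and for 7 other granzymes (below it); a filled point passed the limma test over all genes. Gzmb, at 1.15, is the only filled point, while Gzmf and Gzmg lie near it with intervals that are wider.

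A call for Gzmb and none for another gene is no test of their difference, so the log2 ratio of Gzmb to each of the other 9 genes was taken within each array and compared between groups. The ratio's own size depends on the 2 probes, and only its change between groups is read. Gzmb was set against the others with earlier results of these data known, and the p-values of the ratios do not allow for that. Gzmb changed more than 8 of the 9 genes (limma, Benjamini-Hochberg over the 19937 genes other than Gzmb). Of all genes, 98.4% were called in the same way, so that count says that these 8 genes are like most of the genome beside Gzmb. The differences of log2 fold change were 0.57 for Gzma, 1.10 for Eomes, 1.18 for Ifng, 1.19 for Klrk1, 1.28 for Gzmk, 1.36 for Nkg7, 1.38 for Ncr1 and 1.50 for Klrd1. Their limma adjusted p-values were at most 0.0379, that of Gzma. The call for Gzma was lost without CpG1826 mouse 58 or PBS mouse 26, 29, 482 or 592 (leaving out single mice gave limma adjusted p = 0.00930 to 0.0997).

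Gzmb less Prf1 gave 0.43 (95% confidence interval -0.10 to 0.96, limma adjusted p = 0.115), which did not pass. In this fit 1 variance was shared by all ratios, with an SE of 0.27 for every gene, because every ratio contains Gzmb. An exact permutation test of the 10 arrays, added after the data were seen, uses each gene's own spread, which for the ratio to Prf1 had an SE of 0.09. It called 9 of the 9 differences, where it called 97.7% of all genes. Gzmb over Prf1 was 1.29 to 1.74 in CpG1826 tumors and 0.91 to 1.10 in PBS tumors, without overlap (exact permutation two-sided p = 0.00794, the smallest that 5 against 5 allows, adjusted p = 0.00944). For Gzma the exact permutation p was 0.0238 (adjusted p = 0.0250), with PBS mouse 661 inside the CpG1826 range. Without mice 50 and 661 limma called 9 of the 9 differences, with Gzma at 0.70 and Prf1 at 0.47, where it called 99% of all genes. The groups did not overlap for 8 of the 9 ratios in all 10 arrays, where 84% of all genes gave the same.

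The ratio of Gzmb to Nkg7 had the steadiest CpG1826 values. It was 1.27, 1.19, 1.09, 1.20 and 1.11 in CpG1826 mice 50, 58, 183, 189 and 595, against -0.58, -0.21, -0.12, -0.23 and 0.19 in PBS mice 26, 29, 482, 592 and 661. CpG1826 mouse 50, low for both genes, had a ratio like that of the other 4 CpG1826 tumors, and the groups did not overlap. The difference was 1.36 with an SE of 0.13 from this ratio's own spread (exact permutation adjusted p = 0.00944).

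**Figure D3:**
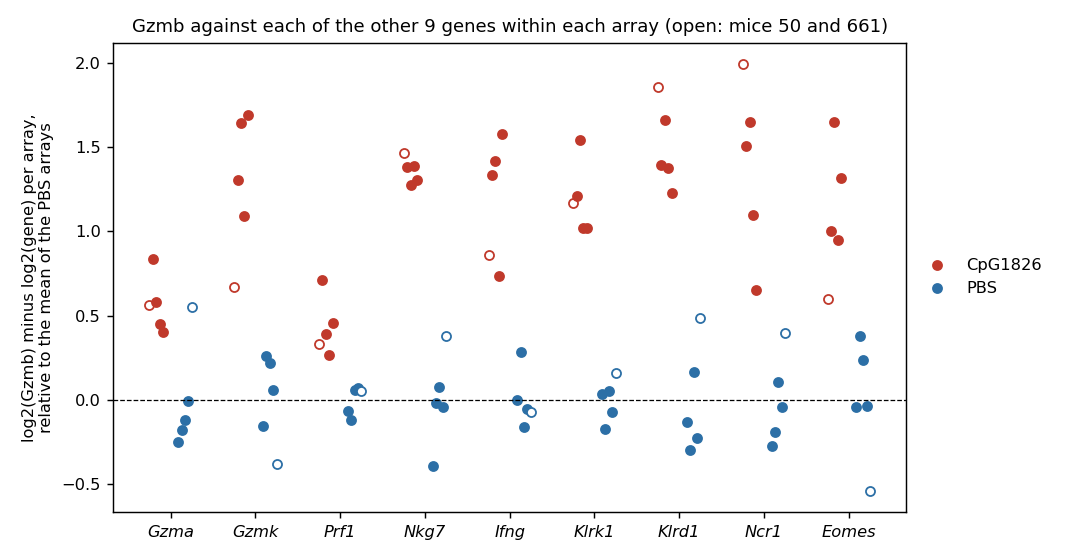
Log2 of Gzmb minus log2 of each of the other 9 genes (horizontal axis) in each array, relative to the mean of the PBS arrays (vertical axis, log2 units), for 5 CpG1826 arrays (red, left of each pair) and 5 PBS arrays (blue, right); open points are mice 50 and 661. CpG1826 points lie above all PBS points for 8 of the 9 genes, the exception being Gzma, where PBS mouse 661 lies among them.

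Within the groups, Gzmb and 6 of the other 9 genes varied together from tumor to tumor. Taking each array's deviation from its group mean, Gzmb correlated with Prf1 at r = 0.94, Nkg7 at 0.94, Klrd1 at 0.92, Klrk1 at 0.90, Gzma at 0.90 and Ncr1 at 0.84 over 10 arrays. The arrays are taken to share their normalization. Ifng (0.69), Gzmk (0.48) and Eomes (0.32) followed less closely. Without mice 50 and 661, over 8 arrays, r was 0.84 for Prf1 and Nkg7, 0.82 for Gzma, 0.72 for Klrd1, 0.67 for Klrk1, 0.36 for Ncr1 and 0.19 for Ifng. The 5 genes of the whole table whose deviations were most like those of Gzmb were Fermt3 (0.99), an integrin activator of blood cells, Cst3 (0.98), the protease inhibitor cystatin C, Myom1 (0.97), a sarcomere protein of muscle, Sema4d (0.97), a semaphorin of lymphocytes, and Epsti1 (0.96). They are the top of 19937 correlations over 10 arrays, and none of the 5 passed the test between groups (log2 fold changes of -0.30 to 0.03). Without mice 50 and 661 their r was 0.99, 0.95, 0.97, 0.91 and 0.91, in the same order. Ranked by r over 10 arrays among the 19937 genes, Prf1 was at 21, Nkg7 at 29, Klrd1 at 83, Klrk1 at 122, Gzma at 136 and Ncr1 at 380. Many genes outside the set thus varied with Gzmb as closely, and this trait is not particular to the set.

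**Figure D4:**
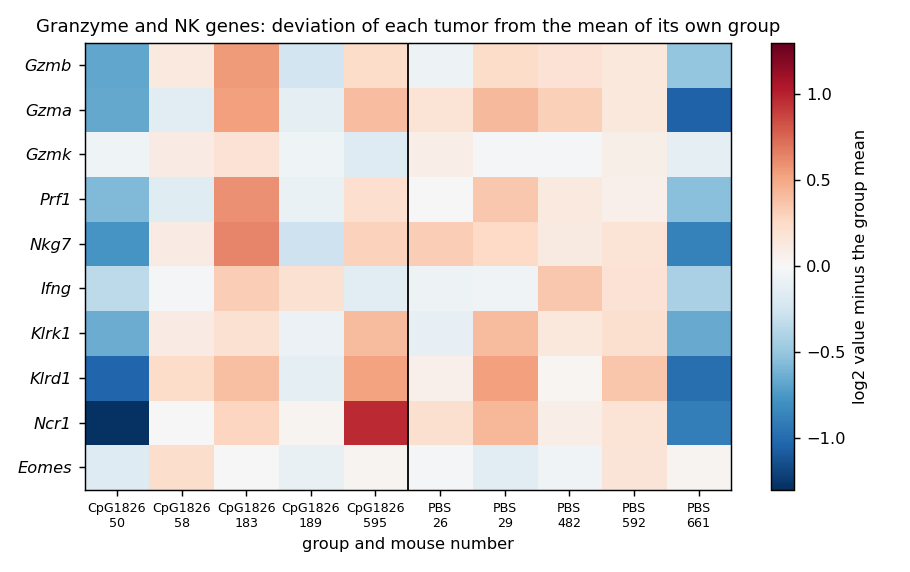
Deviation of each tumor's log2 value from the mean of its own group (colour), for the 10 genes (rows) in 5 CpG1826 tumors (left of the line) and 5 PBS tumors (right); columns are named by group and mouse number. The columns of CpG1826 mouse 50 and PBS mouse 661 are blue for most genes, while Gzmk and Eomes stay pale throughout.

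The other granzymes include the closest relatives of Gzmb. In the RefSeq gene table Gzmc, Gzmf, Gzmn, Gzmg, Gzmd and Gzme follow Gzmb in a row on chromosome 14. Next in the row are Ctsg, Mcpt8, listed here as a basophil marker, and the mast cell protease Mcpt4. Of 7 other granzymes measured, 0 passed the limma test in either direction (4.66% of all genes did). An unadjusted p under 0.05 was reached by 4, all higher (8.13% of all genes were higher at this level). The median log2 fold change over the 7 was 0.60. Gzmg, at 1.16 ± 0.40 (SE; limma adjusted p = 0.155), had an estimate as large as that of Gzmb. It read 8.88, 9.13, 8.78, 8.71 and 9.05 in CpG1826 mice 50, 58, 183, 189 and 595, against 8.49, 8.75, 8.33, 7.10 and 6.07 in PBS mice 26, 29, 482, 592 and 661. The CpG1826 tumors lay close together and the PBS tumors were spread out, with mice 592 and 661 far below the rest. Without mouse 661 the estimate was 0.74, and without both outlying arrays it was 0.75.

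Gzmf (1.01 ± 0.35), Gzmd (0.99 ± 0.45) and Gzme (0.60 ± 0.23) had the same shape, with SDs of 0.21 to 0.33 in CpG1826 tumors and 0.56 to 1.24 in PBS tumors. Without PBS mouse 661 the differences were 0.59 for Gzmf, 0.50 for Gzmd and 0.41 for Gzme. Gzmc, the direct neighbour of Gzmb, differed by 0.49 ± 0.30, and by 0.19 without PBS mouse 661. Gzmm and Gzmn differed by -0.02 and -0.04. Gzmd, Gzme, Gzmf and Gzmg are close copies of one another, so their probes may share signal and their values are uncertain as separate genes.

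Around the granule, 2 of 14 measured genes for processing, release and granzyme inhibition rose and 0 fell (median log2 fold change 0.11). Over all genes, 3.56% were called higher and 1.1% lower. Srgn, the proteoglycan serglycin on which granzymes are packed, was 1.66-fold higher (95% confidence interval 1.40 to 1.96, limma adjusted p = 0.00151), and Stx11, a syntaxin needed for granule release, 1.43-fold higher (1.27 to 1.61, limma adjusted p = 0.0013). Both are also made by myeloid cells. Srgn lay between 12.40 and 12.58 in CpG1826 tumors and between 11.43 and 12.14 in PBS tumors. Serpinb9, the intracellular inhibitor of granzyme B, differed by 0.25 ± 0.12 (SE) and did not pass (limma adjusted p = 0.324). Ctsc, the protease that activates progranzymes, differed by -0.04.

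Of 8 other effector ligands and cytokines of lymphocytes, Ccl5 alone rose and 0 fell (median -0.04), against 3.56% and 1.1% of all genes. Ccl5, a chemokine of T cells, NK cells and macrophages, read 12.62, 12.81, 13.00, 12.74 and 12.82 in CpG1826 mice 50, 58, 183, 189 and 595, against 11.84, 12.12, 12.02, 11.97 and 11.36 in PBS mice 26, 29, 482, 592 and 661 (1.91-fold, limma adjusted p = 0.000523). Fasl (-0.07), Tnfsf10 (0.26), Xcl1 (-0.24) and Lta (-0.13) did not pass.

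Among 27 measured receptors and adaptors of NK cells other than the 3 above, 4 rose and 0 fell, and the median was -0.11. Over all genes, 3.56% were called higher and 1.1% lower. Klrb1b, an inhibitory receptor of the NKR-P1 family, was 2.25-fold higher (95% confidence interval 1.78 to 2.83, limma adjusted p = 0.000454), and its ligand Clec2d was 1.60-fold higher (1.33 to 1.92). Itga2, the collagen-binding integrin CD49b, was 1.95-fold higher (limma adjusted p = 5.13e-05); keratinocytes and platelets make it too. Cd244a, the SLAM receptor 2B4, was 1.62-fold higher (limma adjusted p = 0.0104), and Fcgr3, the Fc receptor CD16, which macrophages and neutrophils share, 1.46-fold (limma adjusted p = 0.0370). The Fcgr3 call was lost without CpG1826 mouse 50, 58, 183 or 595 or PBS mouse 26 or 661 (leaving out single mice gave limma adjusted p = 0.0149 to 0.0942). Other NK receptors did not pass, among them Klrb1c (NK1.1, -0.34), Klrc1 (NKG2A, -0.15), Klra8 (Ly49H, -0.15), Il2rb (0.01) and the adaptor genes Hcst (-0.14) and Tyrobp (-0.10).

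Of 6 measured ligands of NK receptors, 2 rose and 0 fell, against 3.56% and 1.1% of all genes. They were Clec2d and Pvr, the ligand of CD226, CD96 and TIGIT (1.51-fold, 95% confidence interval 1.35 to 1.69, limma adjusted p = 0.000308). The NKG2D ligands Raet1d and H60b differed by 0.07 and 0.03. The remaining NKG2D ligands of the list were not analysed here.

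Of 13 measured transcription factors of cytotoxic lymphocytes, 5 rose and 0 fell (median 0.15), against 3.56% and 1.1% of all genes. Nfil3, a basic leucine zipper factor needed for NK cell development, was 2.05-fold higher (95% confidence interval 1.62 to 2.59, limma adjusted p = 0.00145), Id2 1.61-fold (limma adjusted p = 0.0173) and Prdm1, which encodes Blimp-1, 1.39-fold (limma adjusted p = 0.00198). Stat5a rose by 0.35 ± 0.08 on the log2 scale (SE; limma adjusted p = 0.0201), a call lost without CpG1826 mouse 183 (limma adjusted p = 0.0581, where leaving out single mice gave 0.0226 to 0.0581). Zeb2 rose by 0.31. These 5 factors are also expressed outside lymphocytes. Tbx21, which encodes T-bet and is close to specific for lymphocytes, differed by 0.15 ± 0.11 (SE; limma adjusted p = 0.584), and did not pass.

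Cytokines that activate NK cells, and their receptors, held the largest rise of these lists. Of 17 measured, 5 rose and 0 fell (median 0.16). Il12b, the p40 chain of IL-12, was 9.58-fold higher, and lay between 8.52 and 9.94 in CpG1826 tumors and between 5.68 and 6.14 in PBS tumors. Il27 was 1.97-fold higher (limma adjusted p = 0.000103), Il15 1.73-fold (95% confidence interval 1.38 to 2.16, limma adjusted p = 0.00696), and Il15ra, which presents IL-15, 1.39-fold (limma adjusted p = 0.00535). Il2ra, the high-affinity IL-2 receptor chain, was 1.81-fold higher (limma adjusted p = 0.00823). Il12rb2, the IL-12 receptor chain that activated NK and T cells induce, differed by 0.56 ± 0.20 (SE; limma adjusted p = 0.162), Il18 by 0.11 and Il12a, the other chain of IL-12, by 0.05. Ifnb1, encoding interferon-β, differed by 0.19 ± 0.10 (limma adjusted p = 0.382). Over the 7 lists together, 19 of 92 measured genes were called higher and 0 lower, with a median of 0.09, where 3.56% of all genes were called higher and 1.1% lower. Without mice 50 and 661 the count called higher was 18, where 2.78% of all genes were. The lists were chosen with results of these data known.

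**Figure D5:**
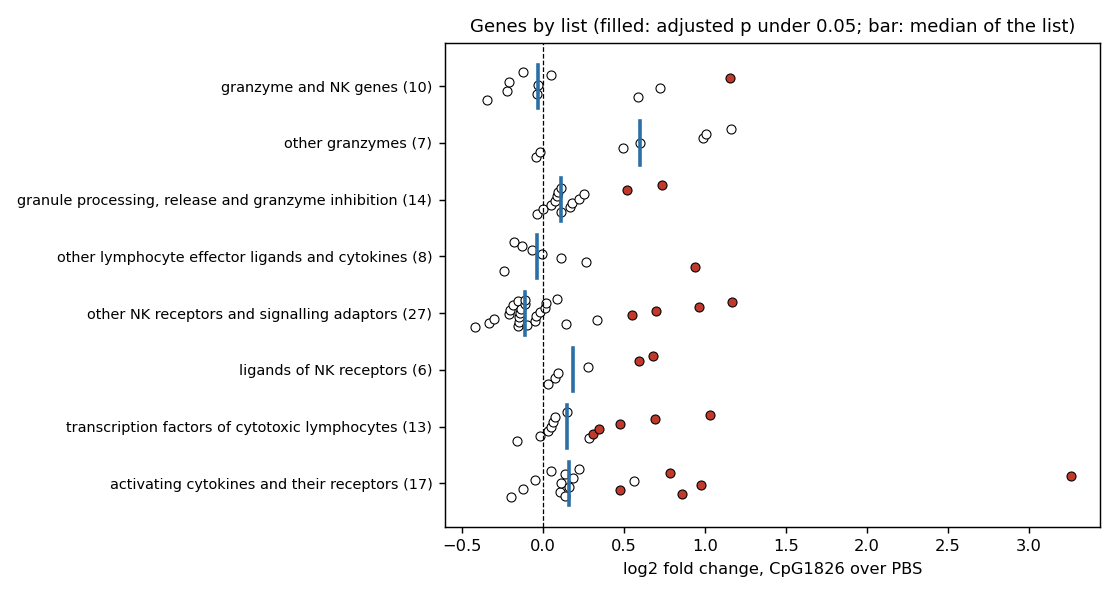
Log2 fold change, CpG1826 over PBS (horizontal axis), of every measured gene in the 10-gene set and in 7 lists around it (rows, number of genes in brackets); filled points passed the limma test over all genes and the blue bar is the median of the list. Filled points lie to the right of 0 in every list that has any, with Il12b at 3.26 farthest out, and the other granzymes have the highest median, 0.60, without a filled point.

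Transcripts that mark T cells and NK cells, the main carriers of Gzmb, mostly did not pass the test. Of 10 measured T cell markers, 0 rose and 0 fell, 2 were lower at an unadjusted p under 0.05, and the median was -0.23. Over all genes, 3.56% were called higher, 1.1% were called lower and 7.43% were lower at the unadjusted level. Cd3e differed by -0.35 ± 0.15 and Cd8a by -0.29 ± 0.18 (SE; limma adjusted p = 0.267 and 0.504), and the summed log2 level of the list was 67.28 to 74.17 in CpG1826 tumors and 68.71 to 75.15 in PBS tumors. Of 10 measured NK markers outside the 10-gene set, 1 rose (Itga2) and 0 fell, with sums of 54.58 to 61.98 in CpG1826 tumors and 54.88 to 60.80 in PBS tumors. All of these markers but Sh2d1b1 are also in the receptor list above, and 7 of the 10 lay below the median gene level in PBS tumors. Mouse 50 and mouse 661 had the lowest sum of their group for the T cell and for the NK markers.

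Mouse plasmacytoid dendritic cells and mast cells can also make Gzmb. The counts of their markers stand beside 3.56% of all genes called higher and 1.1% called lower. Of 7 measured plasmacytoid dendritic cell markers, 2 rose and 0 fell, Ly6d (1.53) and Spib (0.83), with sums of 48.61 to 50.52 in CpG1826 tumors and 46.08 to 48.43 in PBS tumors; Ly6d is also made by keratinocytes, and the defining marker Siglech differed by -0.04 ± 0.11. Of 9 mast cell markers 1 rose, Hdc (1.61), the enzyme that makes histamine, which neutrophils and macrophages make too, and 0 fell, with sums of 60.51 to 63.48 in CpG1826 tumors and 57.25 to 62.25 in PBS tumors. Mcpt4, Cpa3 and Tpsb2 differed by 0.39, 0.20 and 0.14 and did not pass. Of the 9, 8 had estimates above 0. At an unadjusted limma p under 0.05, 2 of the 9 were higher, Hdc and Mcpt4 (8.13% of all genes were). Of 5 basophil and 4 B cell markers, 0 passed in either direction (4.66% of all genes did).

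Most listed markers of neutrophils and keratinocytes did move with the group, where 3.56% of all genes were called higher and 1.1% lower. Of 7 neutrophil markers 5 rose and 0 fell, with sums of 48.36 to 51.81 in CpG1826 tumors and 41.97 to 44.63 in PBS tumors. Those that rose were S100a8 (2.13), Cxcr2 (1.64), S100a9 (1.45), Csf3r (1.10) and Retnlg (0.60). The 2 that did not pass were Ly6g, with a mean of 4.70 in both groups, and Mmp9 (0.19, limma adjusted p = 0.462). Of 13 keratinocyte markers 9 rose and 0 fell, with sums of 90.70 to 97.91 in CpG1826 tumors and 70.74 to 78.37 in PBS tumors. Of 8 macrophage markers 0 rose and 1 fell, Csf1r (-0.46), with sums of 79.97 to 82.97 in CpG1826 tumors and 80.30 to 83.57 in PBS tumors. No value of any of these markers is at 0 on this scale. Which cells made the marker transcripts was not tested, nor was the part of these cells in the rise of Gzmb.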

How the data were processed

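The deposited table holds 35512 probes on 10 arrays as log2 values between 2.03 and 14.70. That they were normalized before deposit was inferred from the close array medians. Per the labels' protocols, total RNA was labelled with a whole-transcript kit for Affymetrix arrays. R 2.7.1 and limma are named, per the submitters' processing notes, with no step attached; the method of background correction and of normalization is not stated there. Normalization can remove a shift common to most genes, and dim probes can understate a change.

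Of the probes, 21789 carry exactly 1 gene symbol in the platform annotation, 1621 several and 12102 none. Single-symbol probes gave 19938 genes, and where a gene had several (999 genes) the probe with the highest mean stood for it. Symbols were checked by gene number against RefSeq for GRCm38.p6 (21698 matched). Groups were compared by limma 3.58.1 under R 4.3.3, with lmFit followed by eBayes (two-sided, 95% intervals). The ratios to Gzmb were fitted in the same way on all genes, and an exact permutation test was added. The fit was tested on simulated data. The number of arrays limits the precision, and p-values measure the spread between these mice. An exception is the limma fit of the ratios to Gzmb, which used 1 variance shared by all ratios.

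The 10 genes, the 7 lists around them and the marker lists were chosen with earlier results of these data known. The text names the 10 genes; up to 4 called genes of each list, or its 2 highest where none was called; Serpinb9, Il12b, Il12rb2, Il15, Il18, Tbx21, Ifnb1, Cd3e, Cd8a and Siglech; and the 5 genes most like Gzmb. Other list members were named after their values were seen. Alternatives were quantile normalization, median centring, 2 filters on low levels, array weights, a robust and trended prior, averaging the probes of a gene, an adjusted p under 0.01 and leaving out each mouse.

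Promoter stretches are RefSeq's for GRCm38.p6, and 9 of the 10 genes matched the table. Klrd1 did not. Which build the array annotation used is not stated in the labels.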

Additional observations from a re-analysis of the deposited data

Results flagged for a closer look

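A tumor was singled out where its gap to the next tumor of its group took a share of the group's range above Dixon's 95% critical value for 5 values. This was met 9 times in 84 checks of 42 genes in 2 groups, where chance alone flags about 1 in 20 groups, and the genes are not independent. PBS mouse 661 was the low tumor in 8 of the 9. Its values were 6.21 for Gzma (next lowest PBS tumor 7.40), 8.15 for Nkg7 (9.14), 5.73 for Ncr1 (6.71), 8.10 for Gzmc (9.43), 7.76 for Klrb1b (8.36), 5.22 for Il12rb2 (5.98), 7.76 for Cd8a (8.44) and 5.89 for Myom1 (6.28). The remaining one was Stat5a in PBS mouse 26, at 8.12 (next lowest 8.34). CpG1826 mouse 50, low in the same genes, did not meet the criterion. With mouse 661 left out the log2 fold change of Gzmb was 1.03 (limma adjusted p = 0.0104).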

How the results depend on the processing

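Gzmb stayed called under all 19 alternatives run on it, at log2 fold changes of 1.02 to 1.32 (limma adjusted p = 0.000790 to 0.0182). The count of the 10 genes called higher was 2, with Prf1 added, when genes below the median level or below the lower quartile were left out, with array weights, and without both CpG1826 mouse 50 and PBS mouse 661, an alternative chosen after the data were seen; leaving out single mice gave 1 to 2. No alternative called any of the 10 lower. Gzmb changed more than 2 of the 3 other genes left when those below the median level were left out, since fewer genes were tested, and more than 7 to 8 of 9 when 1 mouse was left out. Its difference from Gzma lost the call without CpG1826 mouse 58 or PBS mouse 26, 29, 482 or 592 (limma adjusted p up to 0.0997) and at the stricter threshold of 0.01, and its difference from Prf1 gained one without both outlying arrays (0.47, limma adjusted p = 0.0325) and by the exact permutation test. The cause was not tested. The related genes called higher numbered 14 to 20. Of 959 single-gene values under the alternatives, 933 kept direction or stayed uncalled, 19 lost a call, 7 gained one and 0 reversed a call. No paired analysis was possible because no mouse number occurs in both groups. Signal over background was not used here, so changes of the dimmer probes are the least certain.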
